A study of Mus musculus with 4 samples.

Results

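The genes Ugt8a, Gal3st1, Fa2h, Cers2, Sptlc1, Sptlc2 and Degs1 encode enzymes that build the sphingolipids of myelin. They were chosen by gene symbol, and all 7 were found among the 50593 genes of the deposited table. Sciatic nerve was collected at 6 months of age from mice of strain 129S1/SvImJ, and the labels list 2 mice for HSF V30M TTR and 2 for HSF WT TTR. The methods give 4 nerves without saying whether this number is per group. Mice of both groups carried a heterozygous deletion of Hsf1, the gene of the heat shock transcription factor. HSF V30M mice carried in addition a transgene for human transthyretin with the V30M mutation on a Ttr-null background, while HSF WT mice had no transgene and their own Ttr. A difference between the groups therefore joins the transgene with the loss of mouse Ttr, and the promoter of the transgene is not given in the sources used here.

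Myelin is unusually rich in galactosylceramide and its sulfated form, sulfatide, which Schwann cells make while they wrap axons. Serine palmitoyltransferase first joins serine and palmitoyl-CoA to a sphingoid base, ceramide synthases then attach a fatty acid, and a desaturase completes ceramide. In myelin-forming cells much of this ceramide carries a hydroxylated fatty acid of very long chain before galactose, and then sulfate, is added. Loss of galactosylceramide or sulfatide in mice is known to disturb the paranodal contacts between glia and axon.

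Expression is given as FPKM, the fragments assigned to a gene per kilobase of its transcript and per unit of sequencing depth. The table holds 1 such value per gene and group. The mice of a group were pooled in it, so their spread cannot be given. The Cuffdiff test that accompanies these values was not used, and no other was computed. Differences are given as log2((HSF V30M + 1) / (HSF WT + 1)), and a gene was counted as past the fold when this ratio exceeded 1.5-fold in either direction. A count in fragments was read from the low values of other genes, and intervals made from it cover counting error only. The FPKM of mouse Ttr was 6.10 in V30M-labelled nerves, whose mouse gene is null, and Ttr is listed at 0 in WT-labelled nerves, where 3 fragments would have given 0.197. This goes against the null allele, and reads of the human transgene and an exchange of the labels cannot be told apart in this table. An exchange would turn every direction given below, so the groups are called V30M-labelled and WT-labelled nerves throughout. Hsf1, which is heterozygous in both groups, had an FPKM of 7.94 in V30M-labelled nerves and 15.0 in WT-labelled nerves. Its log2 ratio of -0.84 was past the fold, and the cause was not tested. The tissue label was met by myelin genes at very high levels. Mbp, the myelin basic protein gene, had an FPKM of 3854 in V30M-labelled nerves and 3441 in WT-labelled nerves, and Pmp22 had 2252 and 2440 in the same order.

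Start site windows from RefSeq on GRCm38.p6 were matched for 6 of the 7 genes, all but Fa2h. The 250 bases upstream of a start site are shown for Ugt8a and Gal3st1, whose enzymes act in the galactolipid branch, and for Sptlc2, whose enzyme opens the whole pathway. They lie directly upstream of RefSeq start sites, of which Gal3st1 has more than the 1 shown. Each is printed 5′ to 3′ on the strand of the gene, with motif matches on either strand in capitals.
Ugt8a, minus strand, chr3:125938653-125938902: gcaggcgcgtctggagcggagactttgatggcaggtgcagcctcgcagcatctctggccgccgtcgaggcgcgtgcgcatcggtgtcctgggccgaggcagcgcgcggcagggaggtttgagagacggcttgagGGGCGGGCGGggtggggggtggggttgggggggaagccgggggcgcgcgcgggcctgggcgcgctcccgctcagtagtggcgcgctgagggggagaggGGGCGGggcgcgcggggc
Gal3st1, plus strand, chr11:3983386-3983635: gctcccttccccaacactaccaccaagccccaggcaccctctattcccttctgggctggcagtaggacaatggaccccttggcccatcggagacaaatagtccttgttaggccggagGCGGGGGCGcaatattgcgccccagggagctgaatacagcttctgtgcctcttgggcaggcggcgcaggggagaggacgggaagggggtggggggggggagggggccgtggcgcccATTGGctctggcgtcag
Sptlc2, minus strand, chr12:87388356-87388605: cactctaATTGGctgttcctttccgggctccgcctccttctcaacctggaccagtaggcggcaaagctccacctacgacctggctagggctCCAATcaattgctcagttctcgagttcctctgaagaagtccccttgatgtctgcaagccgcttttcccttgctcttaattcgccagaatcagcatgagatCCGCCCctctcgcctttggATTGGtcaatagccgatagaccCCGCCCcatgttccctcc

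The Ugt8a window is 76.8% G or C and holds 3 matches to the GC box GGGCGG, of which 2 overlap by 2 bases. The Gal3st1 window shown is 65.6% G or C, with 1 match to GCGGGGGCG, a form of the site of EGR factors, and 1 to the box CCAAT. Another Gal3st1 window, shifted by 15 bases, also holds both matches. A further window, at chr11:3989683-3989932, is 56% G or C and holds neither. The Sptlc2 window is 55.2% G or C and holds 2 GC boxes and 3 CCAAT boxes. Over 32817 such windows of mouse genes the median was 52.4% G or C. A GC box was in 32.7% of them, CCAAT in 33.8%, GCGGGGGCG in 2.57% and the other EGR form GCGTGGGCG in 0.536%. The SOX core ACAAAG, in 16.5% of all windows, and TATAAA, in 12.4%, had no match in the 3 windows shown. Of the 9 windows of the 6 genes, only that of Sptlc1 holds the SOX core, with 1 match, and none holds TATAAA. These matches describe letters in the reference and not factor binding.

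All 7 enzymes were readily detected in both groups, and none of them was past the fold. The group values of each gene lay within 1.13-fold of each other, with 2 genes higher and 5 lower in V30M-labelled nerves. The comparison set was the 15620 genes whose FPKM averaged 1 or more over the groups, a minimum that all 7 enzymes met. Of these genes 16.7% were past the fold of 1.5, and 11.1% of the 4789 genes at levels between those of the lowest and the highest enzyme. None of the 7 differed by more than 25% of the lower group on this scale either, against 36.1% of all genes and 29.7% of those at like levels. With only 7 genes, a count of 0 past either limit says little. The median log2 ratio of the 7 enzymes was -0.05, beside 0.00 over all genes. With 1 value per group this describes these libraries and does not show that the enzymes were expressed alike in the 2 genotypes.

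**Figure D1:**
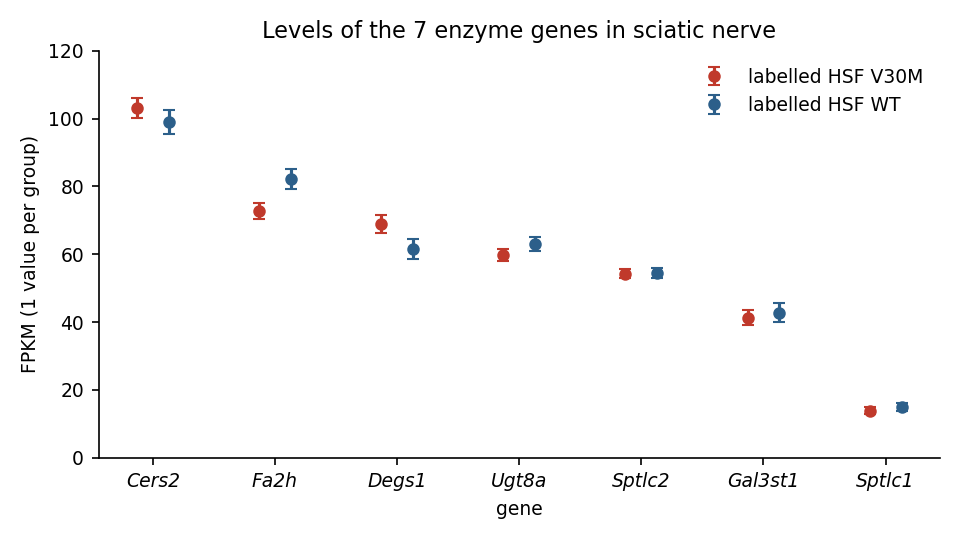
FPKM of each enzyme gene (vertical axis) in the groups labelled HSF V30M (red) and HSF WT (blue), with genes ordered by mean level. Bars are 95% Poisson intervals of the fragments and cover counting error only. The points of each gene lie close together in both groups, from Cers2 at about 100 down to Sptlc1 at 13.8 and 14.9, and only the bars of Fa2h and Degs1 are clear of each other.

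Sptlc1 and Sptlc2 encode the subunits of serine palmitoyltransferase, the committed step of sphingolipid synthesis, and mutations of both are known in hereditary sensory neuropathy. Sptlc1 (ENSMUSG00000021468) has 15 exons and spans 53332748 to 53377397 on chromosome 13, minus strand (GRCm38). Its FPKM was 13.8 in V30M-labelled nerves, about 720 to 848 fragments, and 14.9 in WT-labelled nerves, about 555 to 747 fragments. The log2 ratio was -0.11, and the ratio of the FPKM values was 0.924, with a 95% interval for counting error of 0.826 to 1.03. Sptlc1 was the lowest of the 7 enzymes in both groups. Sptlc2 (ENSMUSG00000021036), on the minus strand of chromosome 12 from 87305058 to 87388355, has a transcript of 6710 bases in 12 exons. It had an FPKM of 54.3 in V30M-labelled nerves and 54.5 in WT-labelled nerves, the smallest difference among the 7, with a ratio of 0.997 and an interval of 0.963 to 1.03. About 7664 to 9019 and 5477 to 7375 fragments stand behind these levels, the most of the 7 enzymes, and the gene overlaps a pair of predicted genes. Although their products join in 1 enzyme, the FPKM of Sptlc2 was 3.93-fold that of Sptlc1 in V30M-labelled nerves and 3.65-fold in WT-labelled nerves. The alternative subunit gene Sptlc3 is listed at 0 in V30M-labelled nerves, where 3 fragments would have given 0.0683, and at 0.0556 in WT-labelled nerves, about 2 to 3 fragments.

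Cers2 attaches fatty acids of very long chain to the sphingoid base and is the main ceramide synthase of myelin-forming cells. The gene (ENSMUSG00000015714) lies on the plus strand of chromosome 3 from 95314791 to 95323599. Its FPKM was 103 in V30M-labelled nerves and 99.0 in WT-labelled nerves, the highest of the 7 enzymes in both, with about 4507 to 5303 and 3081 to 4148 fragments. The log2 ratio was 0.06 and the ratio 1.04, with a counting interval of 0.995 to 1.09. The Cufflinks locus of Cers2 in the table is shared by 8 genes, and the annotated gene overlaps the genes Setdb1 and 6330562C20Rik. Some reads of Cers2 could therefore have been assigned to these or the reverse. Cers2 made up 65.3% of the summed FPKM of the 6 ceramide synthase genes in V30M-labelled nerves and 61.8% in WT-labelled nerves. Next came Cers4, which also prefers long acyl chains, at 32.6 in V30M-labelled nerves and 30.6 in WT-labelled nerves. The synthases of shorter chains were lower on this scale. Cers5 had an FPKM of 15.4 in V30M-labelled nerves and 19.8 in WT-labelled nerves, and Cers6 had 4.79 and 7.28 in the same order. Their log2 ratios of -0.35 and -0.52 did not pass the fold.

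Degs1 introduces the double bond that turns dihydroceramide into ceramide, and its loss causes a leukodystrophy in humans. The gene (ENSMUSG00000038633), on the minus strand of chromosome 1 from 182275772 to 182282804, had an FPKM of 69.0 in V30M-labelled nerves and 61.5 in WT-labelled nerves. These stand for about 2763 to 3251 and 1755 to 2363 fragments. Degs1 had the largest positive difference of the 7, with a log2 ratio of 0.16 and a ratio of 1.12, and its counting interval of 1.06 to 1.19 did not include 1. Of all 15620 genes, 61.6% differed by more than this between the groups. Its paralog Degs2, which also makes hydroxylated sphingoid bases, was far lower, at 5.59 in V30M-labelled nerves and 2.37 in WT-labelled nerves. Degs1 therefore held 92.5% of the FPKM of the pair in V30M-labelled nerves and 96.3% in WT-labelled nerves.

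Fa2h puts the hydroxyl group on the fatty acids of myelin galactolipids, and its deficiency causes spastic paraplegia with late loss of myelin. It lies on the minus strand of chromosome 8 (ENSMUSG00000033579), annotated from 111345135 to 111393824, with 7 exons in its longest transcript. Its FPKM was 72.8 in V30M-labelled nerves and 82.2 in WT-labelled nerves, about 3617 to 4256 and 2909 to 3917 fragments. With a log2 ratio of -0.17 this was the largest difference of the 7 in either direction. The ratio of 0.886 had a counting interval of 0.843 to 0.930, and 59.6% of all genes differed by more. Without values per mouse it is not known whether the differences of Fa2h, Degs1 and Ugt8a, whose intervals leave out a ratio of 1, exceed the variation between mice. For every enzyme but Fa2h, whether the interval leaves out 1 also depends on the scaling, as given with the limits.

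Ugt8a transfers galactose to ceramide and makes galactosylceramide, and Gal3st1 adds the sulfate that makes sulfatide. Ugt8a (ENSMUSG00000032854), on the minus strand of chromosome 3 from 125865271 to 125938619, had an FPKM of 59.7 in V30M-labelled nerves and 63.1 in WT-labelled nerves. About 4578 to 5421 and 3449 to 4673 fragments stand behind these values. The log2 ratio was -0.08, and the ratio of 0.946 had a counting interval of 0.905 to 0.989. Gal3st1 (ENSMUSG00000049721), on the plus strand of chromosome 11 from 3983636 to 3999326, had 41.3 in V30M-labelled nerves and 42.8 in WT-labelled nerves. Its log2 ratio was -0.05, and the ratio of 0.964, from about 1254 to 1769 and 926 to 1496 fragments, had an interval of 0.885 to 1.05. Ugt8a was 1.44-fold as high as Gal3st1 in V30M-labelled nerves and 1.47-fold in WT-labelled nerves.

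By level, the order in V30M-labelled nerves was Cers2, Fa2h, Degs1, Ugt8a, Sptlc2, Gal3st1 and Sptlc1. In the group labelled HSF WT, Ugt8a and Degs1 exchanged places and the others kept theirs. Neighbours whose counting intervals overlapped were Fa2h and Degs1 in V30M-labelled nerves, and Ugt8a and Degs1 in WT-labelled nerves. Apart from Sptlc1, these genes belonged to the upper end of the table. Between 4.96% and 12.7% of genes averaging an FPKM of 1 or more lay above them in V30M-labelled nerves, and between 5.14% and 11.9% in WT-labelled nerves. For Sptlc1, 36.7% and 34.5% of genes lay above it. The highest enzyme gene, Cers2, remained far below the structural myelin genes Mbp and Pmp22.

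**Figure D2:**
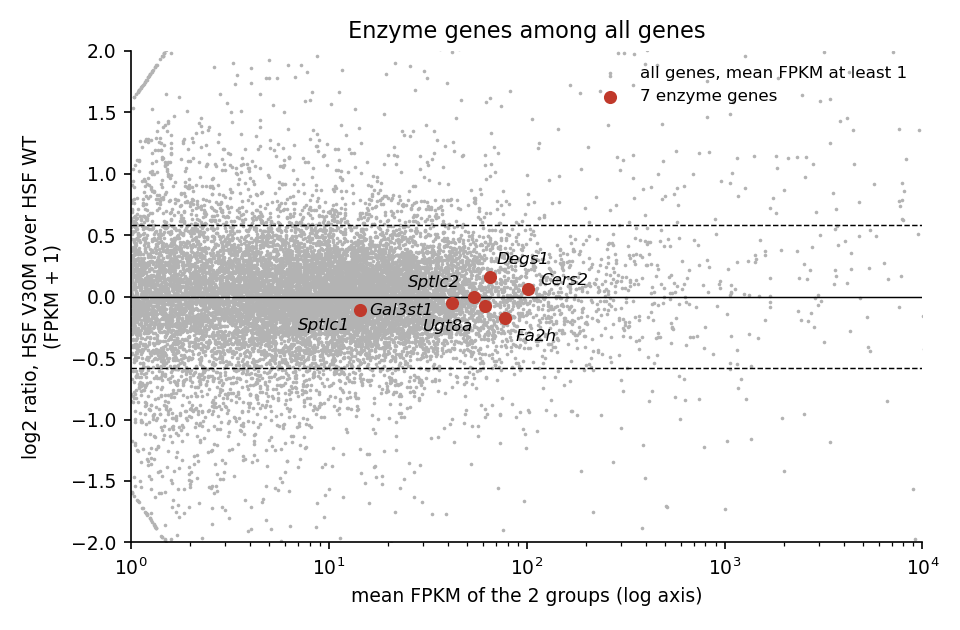
Log2((V30M + 1) / (WT + 1)) of FPKM (vertical axis) against the mean FPKM of the groups (log axis) for the genes with a mean of at least 1 (grey) and the 7 enzymes (red), of which 585 of 15620 genes lie outside the axes. Dashed lines mark the fold of 1.5. All 7 enzymes lie near 0, between -0.17 and 0.16, inside the grey cloud.

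Marker genes of Schwann cells and of other cells were set beside the enzymes. In the list of 14 genes of myelinating Schwann cells, 9 were higher and 5 lower in V30M-labelled nerves, none was past the fold, and the median log2 ratio was 0.21. The summed FPKM of the list was 13318 in V30M-labelled nerves and 11895 in WT-labelled nerves. The transcription factor genes Egr2 and Sox10, which drive myelination and are named after their values were seen, had log2 ratios of 0.45 and 0.46. Setting the median of this list to 0 lowers every gene by 0.21 on the log2 scale and places 72.8% of all genes below 0, in place of 49.6%. By construction all 7 enzymes then lie below 0, from -0.38 for Fa2h to -0.05 for Degs1. In a whole nerve, fewer cells of a type and less RNA per cell cannot be told apart. Some lists for other cell types differed more between the libraries. All 7 skeletal muscle genes averaging an FPKM of 1 or more and all 4 such B cell genes were lower and past the fold in V30M-labelled nerves, with medians of -2.03 and -1.87. All 6 neutrophil genes were higher and past the fold, with a median of 1.76, and so were 5 of 6 erythrocyte genes, with a median of 1.40. All 8 adipocyte genes were lower, 3 of them past the fold, with a summed FPKM of 2474 in V30M-labelled nerves and 3408 in WT-labelled nerves. The medians of 6 fibroblast, 6 macrophage and 5 endothelial genes were -0.07, -0.32 and 0.24. None of the 5 keratinocyte genes reached a mean of 1, and 2 are listed at 0 in both groups. In 8 other Schwann cell genes the median was 0.05, with 1 gene past the fold in each direction. These were Gfap, a marker of non-myelinating Schwann cells, with an FPKM of 2.28 in V30M-labelled nerves and 8.77 in WT-labelled nerves, and Cdh2, a cadherin gene, with 13.3 and 7.84. Both are named after their values were seen, and the locus of Gfap in the table is shared by 12 genes. The part of these cells in the values of the enzymes was not tested.

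The wider pathway was read from 71 genes in 5 lists, all of them in the table, of which 66 averaged an FPKM of 1 or more. Of these 66, 6 were past the fold and higher in V30M-labelled nerves and 3 were past it and lower, 13.6% in all. The background over all genes was 8.22% higher and 8.44% lower, so the share was near the background. With the median of the myelinating Schwann cell list set to 0, 3 were higher and 6 lower, beside 5.15% and 15% of all genes on that scale, 20.1% together. The median log2 ratio of the 66 was 0.02.

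**Figure D3:**
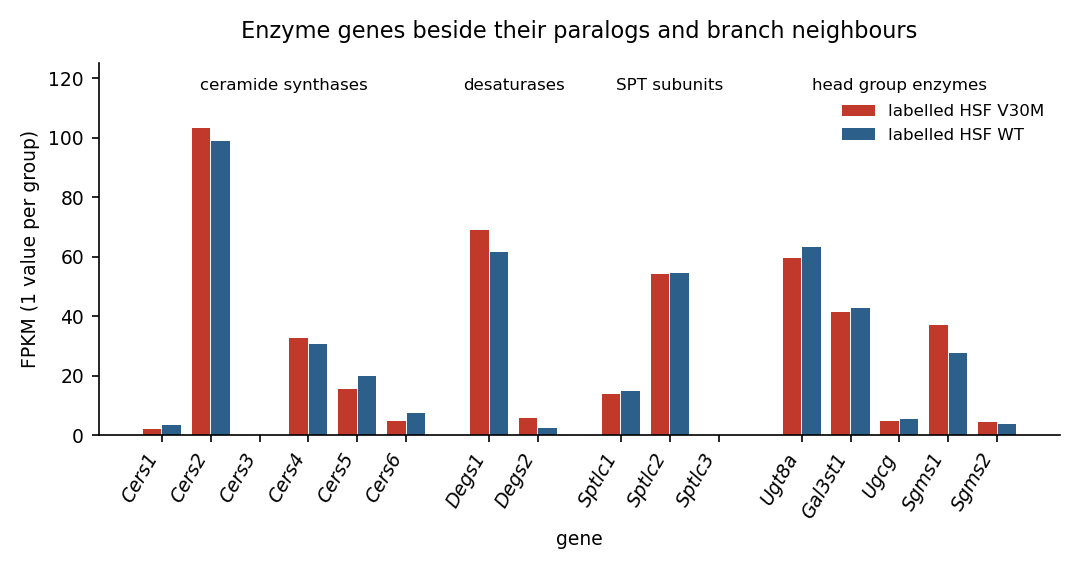
FPKM (vertical axis, from 0) of the enzymes beside their paralogs and branch neighbours in the groups labelled HSF V30M (red bars) and HSF WT (blue bars), with SPT standing for serine palmitoyltransferase and no error bars since there is 1 value per group. Cers2, Degs1, Sptlc2 and Ugt8a are the tallest of their families in both groups.

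Beside the enzymes of ceramide synthesis, 10 of 13 listed genes reached a mean of 1, with 3 higher and 7 lower in V30M-labelled nerves and a median of -0.25. Only Degs2 was past the fold, with a log2 ratio of 0.97, from about 132 to 218 fragments in V30M-labelled nerves and 40 to 75 in WT-labelled nerves. Its locus in the table is shared by 6 genes. Among 11 of 12 genes that elongate fatty acids or complete the elongation cycle, 7 were higher and 4 lower, with a median of 0.06. Elovl1, the elongase that supplies saturated acyl chains of very long length to Cers2, was the highest, at 169 in V30M-labelled nerves and 162 in WT-labelled nerves. Elovl4 was past the fold, at 7.98 in V30M-labelled nerves and 4.92 in WT-labelled nerves, but only just, with a log2 ratio of 0.60 against a limit of 0.58. Elovl6, which elongates palmitate and is abundant in fat, was lower, at 15.4 in V30M-labelled nerves and 24.9 in WT-labelled nerves, with a log2 ratio of -0.65. The adipocyte markers were lower in the same group, as given above, and their part in this value was not tested.

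Sulfation by Gal3st1 needs the donor PAPS, made in the cytosol and carried into the Golgi. Papss1, the more abundant PAPS synthase gene, had an FPKM of 55.2 in V30M-labelled nerves and 70.3 in WT-labelled nerves, a log2 ratio of -0.35 that did not pass the fold. Slc35b2, which carries PAPS into the Golgi, was past the fold and lower, at 12.4 in V30M-labelled nerves and 20.4 in WT-labelled nerves, with a log2 ratio of -0.68. Among the 7 genes of donor supply 2 were higher and 5 lower, with a median of -0.21.

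Ceramide can also take a phosphocholine or a glucose head group. Of 16 genes of these branches and of lipid transfer 15 reached a mean of 1, 10 were higher and 5 lower, none was past the fold, and the median was 0.07. Sgms1, a sphingomyelin synthase gene, had the highest level, at 37.1 in V30M-labelled nerves and 27.7 in WT-labelled nerves, with a log2 ratio of 0.41. Ugcg, which makes glucosylceramide, had 4.72 in V30M-labelled nerves and 5.50 in WT-labelled nerves. The galactosyltransferase Ugt8a was thus 12.6-fold as high as Ugcg in V30M-labelled nerves and 11.5-fold in WT-labelled nerves.

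In the list for breakdown all 23 genes reached a mean of 1, with 13 higher and 10 lower in V30M-labelled nerves and a median of 0.08. The enzymes that undo the galactolipid steps did not pass the fold. Galc, which removes galactose and is lost in Krabbe disease, had an FPKM of 10.7 in V30M-labelled nerves and 9.48 in WT-labelled nerves. Arsa, the sulfatidase lost in metachromatic leukodystrophy, had 12.5 in V30M-labelled nerves and 10.4 in WT-labelled nerves. Psap, the precursor of their activators and the highest gene of the list, had 452 and 475 in the same order. Their log2 ratios were 0.16, 0.24 and -0.07. Ugt8a was 5.55-fold as high as Galc in V30M-labelled nerves and 6.66-fold in WT-labelled nerves, and Gal3st1 was 3.30-fold and 4.10-fold as high as Arsa.

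Past the fold in the list for breakdown, 4 genes were higher and 1 lower, 21.7% of the 23, beside 16.7% of all genes. Smpd1, the acid sphingomyelinase, had an FPKM of 43.6 in V30M-labelled nerves and 27.4 in WT-labelled nerves, with a log2 ratio of 0.65. Hexa, a subunit of the enzyme that trims gangliosides, was the lower one, at 53.9 in V30M-labelled nerves and 87.0 in WT-labelled nerves, with a log2 ratio of -0.68. The other 3 were at low levels. Sphk1, a sphingosine kinase gene, had 2.36 in V30M-labelled nerves and 0.469 in WT-labelled nerves, the latter about 10 to 24 fragments. Sgpp2, a sphingosine phosphate phosphatase gene, had 2.37 and 0.412 in the same order, with about 24 to 33 fragments behind the second value and a locus shared by 6 genes. Asah2, the neutral ceramidase, had 2.77 and 1.31.

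**Figure D4:**
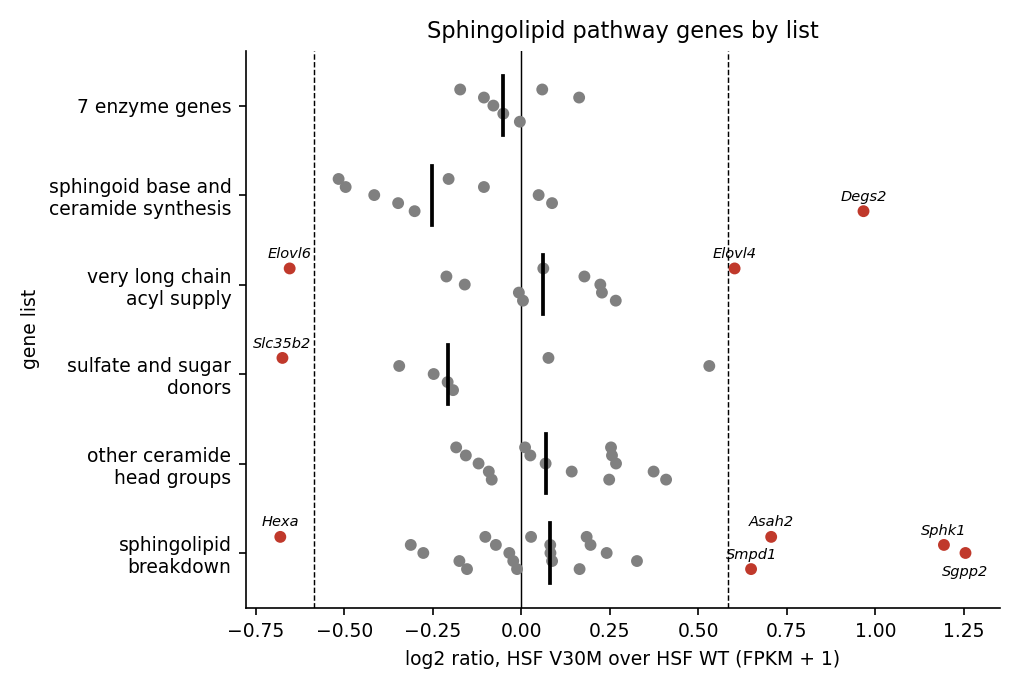
Log2((V30M + 1) / (WT + 1)) of FPKM (horizontal axis) for the enzymes and the 5 pathway lists (rows), with each point a gene of mean FPKM of at least 1 and black bars the medians. Dashed lines mark the fold of 1.5 and red points lie beyond it, 9 of them in the pathway lists and none among the 7 enzymes.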

How the data were processed

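The authors aligned Ion Torrent reads to GRCm38, and the submitters' notes name STAR, Cufflinks and Cuffdiff, with versions and annotation not given in the sources used here. The deposited table holds their FPKM per gene as a Cuffdiff value of each group. It also holds the authors' fold changes, test statistics, p-values and q-values, which were not used. Columns were read by number, and decimal commas were replaced by points. Of the genes, 23 with too many alignments were left out. The pseudocount was 1, the minimum mean FPKM 1 and the fold 1.5.

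What 1 fragment is worth was estimated on genes with 1 transcript and no neighbour in their locus, after shortening each transcript by 200 bases. The product of FPKM and kilobases had its peaks at 0.0481 and 0.0648 for HSF WT, taken as its 2 libraries, and for HSF V30M at 0.0392 and 0.0461. In HSF WT, 98.1% of 1634 low values lay within 2% of whole fragments, and in HSF V30M, rounded to 2 decimals, 93.3% of 668 lay within 5%, a weak check. Fragment ranges run from the shortest to the longest transcript of the GENCODE M21 basic set and over the worths. Intervals are 95% exact, from the low end, with ratios by the Clopper-Pearson method, and a limit at 0 is 3 fragments.

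Positions are from GENCODE M21, which holds 50369 of the identifiers and lacks 224. Named genes are the 7 enzymes, their direct neighbours, the highest gene and those past the fold in each pathway list, myelin references and targeted alleles, of which some are not reported here. Members and lists were chosen with earlier results of these data known. Scripts were tested on simulated data. Tables were handled with pandas 2.3.3 on numpy 2.4.6 in Python 3.11.15, intervals came from scipy 1.17.1, and figures from matplotlib 3.10.9. The alternatives are given with the limits.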

Additional observations from a re-analysis of the deposited data

How the results depend on the processing

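No paired analysis was possible because the mice of a group were pooled into 1 value by the authors, and for the same reason no replicate could be left out. No enzyme was past the fold under any alternative run. The runs were pseudocounts of 0.1 and 0, minimum means of 5 and 0, median-of-ratios scaling and equal sums over protein-coding genes. Further runs were centring on the myelinating Schwann cell list, and limits of 25% above the lower group and of 2-fold. All 7 enzymes averaged above 5 and lay within 1.5-fold, so the minimum means and the limit of 2-fold could not change this count. The scalings moved log2 ratios by at most 0.21, against a limit of 0.58, so they were a weak check of it. The median of the 7 enzymes stayed between -0.06 and -0.03 except with the centring, where it was -0.26. By construction that setting lowers every ratio by 0.21, and it takes Cers2 and Degs1 below 0, to -0.15 and -0.05. Equal sums over protein-coding genes left 3 enzymes above 0 in place of 2. This scaling raises log2 ratios by 0.0232, and the counting interval of Ugt8a, which ended at -0.0164, then holds 0. With the centring the interval of Degs1, which began at 0.0787, holds 0 too. The interval of Fa2h leaves out 0 under both. Of the pathway genes 9 were past the fold, and 5 with a minimum mean FPKM of 5, where 49 genes remain, 18 at the limit of 25% and 2 at that of 2-fold. With a pseudocount of 0.1 or none, 7 were higher and 5 lower. The centring left 3 higher and 6 lower, in place of 6 higher and 3 lower. Fragments limit Sptlc3, Sphk1 and Sgpp2. The absence of values per mouse limits every comparison.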

Other observations

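The receptors of sphingosine phosphate and its exporter Spns2, a list added after other values had been seen, were also read. S1pr3 had the highest level, with an FPKM of 30.5 in V30M-labelled nerves and 32.3 in WT-labelled nerves. S1pr1, the receptor that guides lymphocytes and steadies endothelium, had 13.9 in V30M-labelled nerves and 10.4 in WT-labelled nerves. S1pr2 had 7.21 and 4.90 in the same order, a log2 ratio of 0.48, and Spns2 had 5.93 and 4.87. S1pr4 and S1pr5 had a mean FPKM under 1. S1pr5, known from oligodendrocytes and natural killer cells, had 0.210 in V30M-labelled nerves and 0.245 in WT-labelled nerves, about 10 to 12 and 9 to 12 fragments. Of the 4 genes that reached a mean of 1 none was past the fold, beside 16.7% of all genes. With so few genes this count says little, and no test was computed.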
